A study of Mus musculus with 9 samples.

Results

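The SLC25 family comprises the carriers that move metabolites, nucleotides and cofactors across the inner mitochondrial membrane, together with a few relatives in peroxisomes and in the outer mitochondrial membrane. Its transcripts were examined here in BV2, a line of immortalised microglia from mouse, by taking every gene row whose symbol begins with Slc25a and a digit. There were 48 such rows of 55335, namely 47 protein-coding genes and 1 pseudogene. Ucp2, Mtch1 and Mtch2 have other symbols and were counted in a separate list of other mitochondrial transporters. The 32 members that averaged 1 FPKM or more across all 9 libraries were tested and are described by the substrate they carry. FPKM corrects the number of sequenced fragments of a gene for transcript length and library size, so it may be compared between genes as a level per transcript length.

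The study asked how oxygen shortage alters gene expression in these cells and whether added ethanolamine, a precursor of membrane phospholipids, alters that response. Wild-type BV2 cells were kept in DMEM medium with fetal bovine serum and antibiotics. The 3 groups of 3 libraries each were control cells labelled with time 0 h, cells held for 24 h at 1% O2 (hypoxia), and cells held for 24 h at 1% O2 with 100 µM ethanolamine (hypoxia with ethanolamine). Library titles call the first group controls, whereas their treatment tag names an adipocyte differentiation; the titles were followed. Hypoxia and control differed in labelled time as well as in oxygen, so the contributions of 24 h of culture and of low oxygen cannot be told apart. BV2 is 1 cell line, and no label states that the libraries of a group came from separate cultures, so the p-values measure the spread between these libraries, which may be technical.

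The summed FPKM of a library ranged from 324121 to 370322, and 11556 to 11924 genes reached 1 FPKM. The absolute sequencing depth is unknown. Steps between low values placed the deepest library at 1.33-fold the shallowest. This is a rough estimate, since the most common ratio to control replicate 1 held only 0.819% to 1.06% of the values. Correlations of log2 values between libraries of a group were 0.974 to 0.983, against 0.878 to 0.894 between control and hypoxia. Ribosomal RNA-like transcripts took 1.68% to 6.52% of the FPKM in control, 6.64% to 10.9% in hypoxia and 5.92% to 10.5% with ethanolamine. After rescaling without these and the mitochondrial transcripts, 9 carriers were higher and 15 lower in hypoxia, as against 9 and 14 on the deposited scale. Of 12 microglia and macrophage markers, 9 had a mean of at least 1 FPKM, while Aif1, P2ry12 and Tmem119 averaged less. The summed level of the list was 1050 to 1310 FPKM in control, 1290 to 1440 in hypoxia and 1330 to 1380 with ethanolamine. Of 8 adipocyte markers Fabp4 alone averaged 1 FPKM or more, while Adipoq, Plin1, Lep and Cfd were listed at 0 in every library; the list summed to 16 to 22 FPKM in control, 24.5 to 27.1 in hypoxia and 19.5 to 20.7 with ethanolamine. Markers of astrocytes, neurons, oligodendrocytes and endothelial cells, 4 of each, all averaged under 1 FPKM. The endothelial list summed to 0.636 to 0.818 FPKM in control, 2.05 to 2.14 in hypoxia and 1.69 to 2.01 with ethanolamine, and the oligodendrocyte list to 0.280 to 0.469, 0.627 to 0.996 and 0.507 to 0.774; the part of any of these lists in the results was not tested.

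Most carriers of the family are made in the cytosol from nuclear genes and inserted into the inner membrane by the TIM22 complex. ADP/ATP and phosphate carriers supply the ATP synthase and export its product, the aspartate/glutamate and oxoglutarate carriers together form the malate-aspartate shuttle that passes reducing equivalents into the mitochondrion, and mitoferrins bring in the iron used for haem and iron-sulphur clusters. In oxygen-poor cells mitochondrial respiration is lowered and glycolysis supplies more of the ATP, which makes the traffic through these carriers of interest in microglia, whose metabolic state changes with their activation.

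Under hypoxia, 5 of the 6 tested amino acid carriers were lower, the dicarboxylate, mitochondrial folate and mitoferrin 2 carriers were lower as well, and the oxoglutarate, pyrimidine nucleotide (Slc25a36) and ATP-Mg/phosphate (Slc25a24) carriers were higher. Of the 32 members tested, 23 passed an adjusted p of at most 0.05 in hypoxia against control (limma on log2(FPKM + 0.5), Benjamini-Hochberg adjustment over 11802 genes), 9 of them higher and 14 lower. That is 71.9% of the members, against 59.4% of all genes tested, and the background was 24.7% for higher and 34.7% for lower genes. The median log2 change was -0.20 over the members and -0.09 over all genes tested. An adjusted p of at most 0.05 together with an absolute log2 change of at least 0.8 was reached by 5 members, 1 higher and 4 lower, where 21.8% of all genes reached it. The 3 control and 3 hypoxia libraries did not overlap for 26 of the 32, against a background of 65.0%. With ethanolamine, none of the 32 members passed that adjusted p against hypoxia alone.

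**Figure D1:**
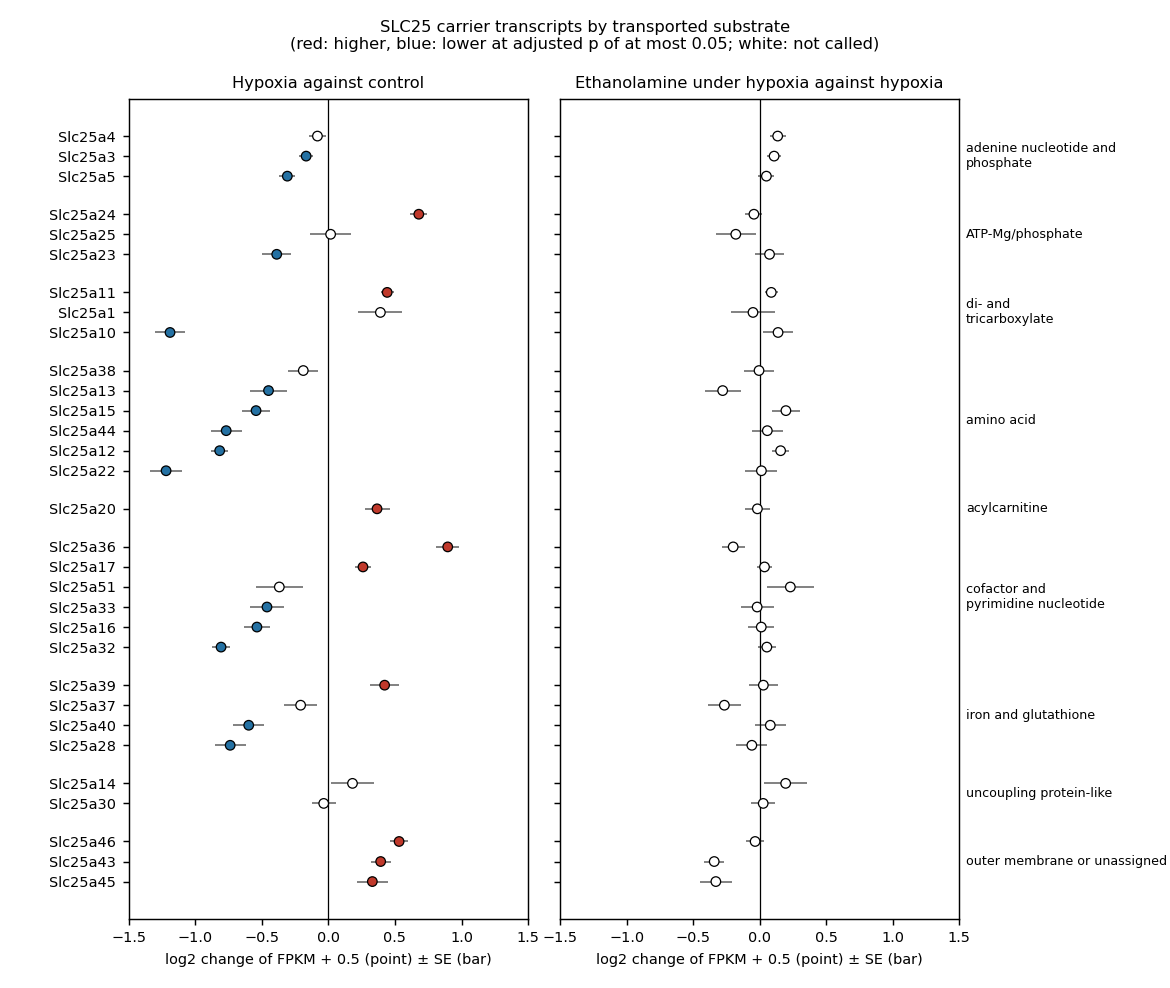
Log2 change of FPKM + 0.5 (horizontal axis; point with its SE as a bar) for the tested carriers reported here, grouped by substrate on the vertical axis, in hypoxia against control (left) and in ethanolamine under hypoxia against hypoxia (right), with filled points for an adjusted p of at most 0.05. The left panel holds 9 higher and 14 lower carriers, with amino acid carriers all left of 0, and the right panel holds no filled point.

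On the deposited scale, the whole pool of carrier transcripts was slightly smaller in the hypoxic groups. Summed over all 48 rows it was 1029, 988.6 and 996.1 FPKM in the control libraries, 934.1, 894.3 and 948.3 in hypoxia and 948.6, 969.2 and 949.6 with ethanolamine, so that no 2 groups overlapped. The exact permutation p was 0.1 for each pair of groups, the smallest that 3 against 3 libraries allow. Hypoxia and ethanolamine were barely apart, their nearest libraries being at 948.3 and 948.6 FPKM. As a percent of the library's FPKM, carriers took 0.3065 ± 0.0098 in control, 0.2668 ± 0.0076 in hypoxia and 0.2654 ± 0.0079 with ethanolamine (SD, n = 3). By that percent the hypoxic groups overlapped (exact permutation p 0.8), and both lay below control (exact permutation p 0.1 each). After scaling the libraries by median-of-ratios size factors the mean sums were 958.5 in control, 928.2 in hypoxia and 971.9 with ethanolamine, so the order of control and ethanolamine turned. Without Slc25a3, Slc25a4 and Slc25a5, the sum was 391.7 ± 17.0 FPKM (SD, n = 3) in control and 403.9 ± 8.79 in hypoxia, and the ranges overlapped. FPKM is relative to each library, so these sums give no amount of RNA per cell. In these bulk samples, a change in some cells and a change in all cells cannot be told apart.

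**Figure D2:**
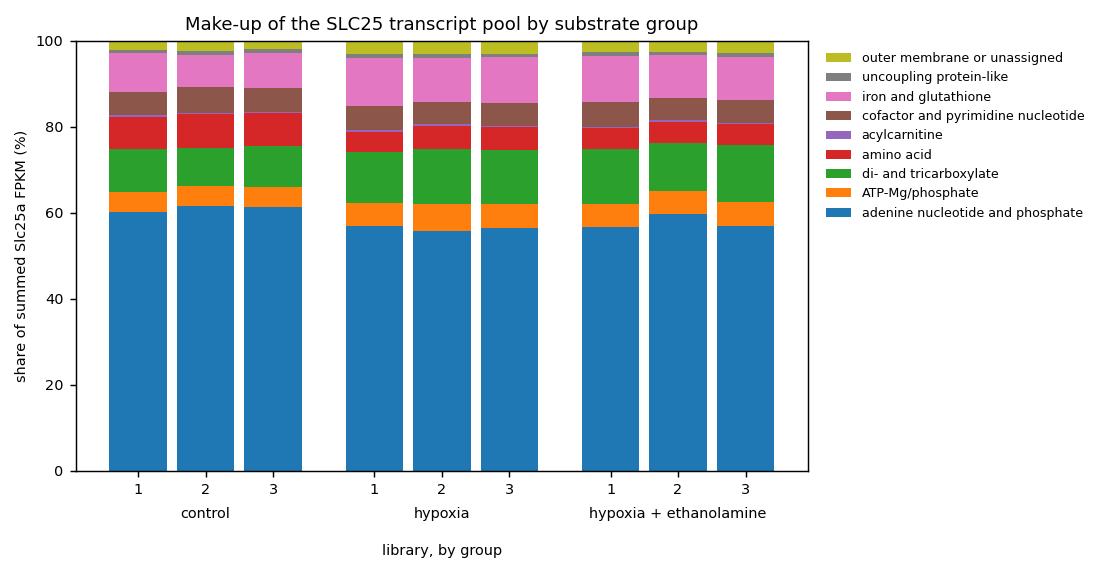
Share of the summed Slc25a FPKM (vertical axis, percent) taken by each substrate group in each of the 9 libraries (bars). Adenine nucleotide and phosphate carriers make up 60.1% to 61.7% of the sum in control and 55.7% to 56.9% in hypoxia, and amino acid carriers 7.51% to 7.91% and 4.82% to 5.32%.

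Shares within the pool moved beyond the spread of the libraries, as the stacked plot of the pool by substrate group shows. Adenine nucleotide and phosphate carriers took 61.0% ± 0.842 of the pool in control and 56.4% ± 0.590 in hypoxia (SD, n = 3). Di- and tricarboxylate carriers took 9.47% ± 0.512 in control and 12.4% ± 0.653 in hypoxia, and the iron and glutathione carriers 8.30% ± 0.863 and 10.6% ± 0.447. Within the iron and glutathione group only 1 of 4 carriers, the abundant Slc25a39, had a log2 change above 0, and the group's median log2 change was -0.40. Amino acid carriers held less of the pool in hypoxia, with 5.13% ± 0.272 against 7.73% ± 0.205 in control. None of these 4 shares overlapped between control and hypoxia, each with an exact permutation p of 0.1, the smallest possible. The share of the cofactor and pyrimidine nucleotide carriers was 5.63% ± 0.343 in control and 5.39% ± 0.200 in hypoxia, with overlapping ranges.

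The ADP/ATP carriers Slc25a5 and Slc25a4 had the highest means of all members over the 9 libraries, and the phosphate carrier Slc25a3 belongs to the same group. Slc25a5, the ADP/ATP carrier typical of proliferating cells (chrX:36795651-36798807, GRCm38, plus strand), was at 398, 397 and 396 FPKM in the control libraries, 328, 303 and 332 in hypoxia and 332, 348 and 317 with ethanolamine. The 3 control libraries were nearly identical, and all hypoxic libraries lay below them. Its log2 change in hypoxia was -0.31 ± 0.06 (SE) with a limma adjusted p of 0.0018. Slc25a4, the isoform typical of heart and muscle, was at 168, 159 and 161 FPKM in the control libraries, 154, 150.2 and 156 in hypoxia and 156, 178 and 173 with ethanolamine. The hypoxia libraries lay just below the controls, with a log2 change of -0.08 ± 0.06 (SE) and a limma adjusted p of 0.277, and the ethanolamine libraries reached from the top of the hypoxia range to above the controls. The share of Slc25a4 in the sum of these isoforms was 29.6%, 28.6% and 28.9% in control, 32.0%, 33.2% and 32.0% in hypoxia and 32.0%, 33.8% and 35.3% with ethanolamine. Both hypoxic groups lay above the control range, with an exact permutation p of 0.1 each. Mouse genomes carry retrocopies of Slc25a5; the annotated one listed here, Slc25a5-ps, reached 0.0937 FPKM at most, and how the authors assigned reads that match several copies is not given in the sources used here, so the Slc25a5 level is uncertain to that extent.

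Slc25a3, which imports phosphate together with protons, had means of 53.0 ± 0.582 FPKM in the control group, 47.2 ± 1.98 under hypoxia and 50.9 ± 1.67 when ethanolamine was added (SD, n = 3). Its log2 change was -0.17 ± 0.05 (SE) with a limma adjusted p of 0.0213. This call was lost under median-of-ratios scaling (log2 change -0.10, adjusted p 0.185), under quantile scaling (-0.08, adjusted p 0.229) and without control replicate 3, hypoxia replicate 2 or hypoxia replicate 3 (adjusted p 0.0658, 0.0687 and 0.0602). The germ-cell ADP/ATP carrier Slc25a31 was listed at 0 in all libraries.

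The calcium-regulated ATP-Mg/phosphate carriers, which load or unload adenine nucleotides across the inner membrane, split in direction. Slc25a24 was at 17.9, 19.4 and 18.1 FPKM in the control libraries, 30.3, 31.5 and 27.8 in hypoxia and 28.5, 30.0 and 28.3 with ethanolamine. Every hypoxic library lay above every control, and the log2 change of 0.68 ± 0.06 (SE) had a limma adjusted p of 1.81e-05. Slc25a23 was at 23.4, 19.4 and 22.6 FPKM in the control libraries, 14.4, 17.2 and 18.0 in hypoxia and 17.7, 15.7 and 18.9 with ethanolamine. Its hypoxia and ethanolamine libraries all lay below the controls, with a log2 change of -0.39 ± 0.11 (SE) and a limma adjusted p of 0.0128. The ratio of Slc25a24 to Slc25a23 was therefore 0.855 ± 0.127 in control, 1.82 ± 0.281 in hypoxia and 1.67 ± 0.217 with ethanolamine (SD, n = 3). Slc25a25 was at 8.78, 6.29 and 5.27 FPKM in the control libraries, 6.40, 6.78 and 7.0 in hypoxia and 6.34, 5.61 and 5.70 with ethanolamine. The controls alone spanned all hypoxia values, and its log2 change was 0.02 ± 0.15 (SE) with a limma adjusted p of 0.933. Slc25a23 and Slc25a25 share exonic bases with opposite-strand genes (Gm17168 over 168 bases and Naif1 over 379 bases). Library strandedness is not given in the sources used here, so reads of such partners cannot be told apart.

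The carriers of di- and tricarboxylates gave the widest contrast between related members. Slc25a11, which exchanges oxoglutarate for malate in the malate-aspartate shuttle, lies at chr11:70644196-70647479 (GRCm38, minus strand). Slc25a10, which exchanges malate or succinate for phosphate, lies on the same chromosome at chr11:120491840-120499187 (plus strand). Because they changed in opposite directions, their promoter windows are printed. Each window holds 300 bases, 250 before and 50 after the RefSeq transcript start (GRCm38.p6), at chr11:70646990-70647289 on the minus strand and chr11:120491587-120491886 on the plus strand, written 5′ to 3′. Capitals mark each match to the core of the hypoxia response element, searched as ACGTG or GCGTG on both strands (CACGT or CACGC when read on the printed strand; ACGTG and CACGT overlap in CACGTG).
Slc25a11 promoter: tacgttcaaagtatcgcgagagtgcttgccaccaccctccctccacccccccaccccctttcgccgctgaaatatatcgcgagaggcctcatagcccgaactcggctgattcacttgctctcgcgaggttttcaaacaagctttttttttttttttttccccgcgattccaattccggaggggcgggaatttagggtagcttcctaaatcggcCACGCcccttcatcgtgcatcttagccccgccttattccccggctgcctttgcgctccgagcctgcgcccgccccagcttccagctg
Slc25a10 promoter: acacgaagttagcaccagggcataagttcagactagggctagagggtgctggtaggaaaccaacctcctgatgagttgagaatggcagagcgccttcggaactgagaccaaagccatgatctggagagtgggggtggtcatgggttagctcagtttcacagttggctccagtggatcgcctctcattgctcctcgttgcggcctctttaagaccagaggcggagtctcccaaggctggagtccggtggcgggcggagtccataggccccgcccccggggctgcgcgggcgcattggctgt
The Slc25a11 window holds 1 match and the Slc25a10 window none. The Slc25a11 window lies wholly inside the GENCODE gene, whose upstream end is at 70647479, so the bases before that end were not searched. A match is common: it occurs in 43.8% of the 32851 RefSeq promoter windows of this length. Of the 26 tested members with a window, 17 hold at least 1 match (65.4%), namely 4 of 8 higher, 10 of 12 lower and 3 of 6 uncalled members. Counted by gene and in any of its windows, the share over all 27025 genes with a window is 46.7%. These genes were not limited to those that passed the 1 FPKM limit, so the shares cover unlike sets of genes.

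Slc25a11 was at 46.8, 46.9 and 47.0 FPKM in the control libraries, 65.3, 64.6 and 61.9 in hypoxia and 67.5, 66.1 and 70.1 with ethanolamine. The controls lay within a fraction of 1 FPKM of each other, and no hypoxic library came near them. Its log2 change in hypoxia was 0.44 ± 0.05 (SE) with a limma adjusted p of 5.01e-05. Slc25a10 was at 15.3, 12.6 and 13.5 FPKM in the control libraries, 6.35, 4.98 and 5.97 in hypoxia and 5.6, 6.61 and 6.95 with ethanolamine. Its highest hypoxic library was below the lowest control, and its log2 change of -1.19 ± 0.11 (SE) had a limma adjusted p of 2.12e-05. The ratio of Slc25a11 to Slc25a10 was 3.06, 3.74 and 3.49 in control, 10.3, 13 and 10.4 in hypoxia and 12, 10.0 and 10.1 with ethanolamine. The hypoxic groups overlapped each other and both lay above control (exact permutation p 0.1 each). Slc25a11 shares 189 exonic bases with Rnf167 and Slc25a10 shares 228 with Gm11788, both on the opposite strand. Slc25a1, which exports citrate for lipid synthesis, was at 40.1, 28.6 and 34.7 FPKM in the control libraries, 37.6, 46.0 and 52.4 in hypoxia and 47.7, 36.0 and 47.5 with ethanolamine. Libraries of a group were widely spread, and its log2 change was 0.39 ± 0.16 (SE) with a limma adjusted p of 0.068. It passed the threshold under median-of-ratios (0.0355) and quantile scaling (0.0233) and without control replicate 1 (0.0369), hypoxia replicate 1 (0.0307) or ethanolamine replicate 2 (0.0497), all limma adjusted p-values. The oxodicarboxylate carrier Slc25a21 was listed at 0 throughout.

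**Figure D3:**
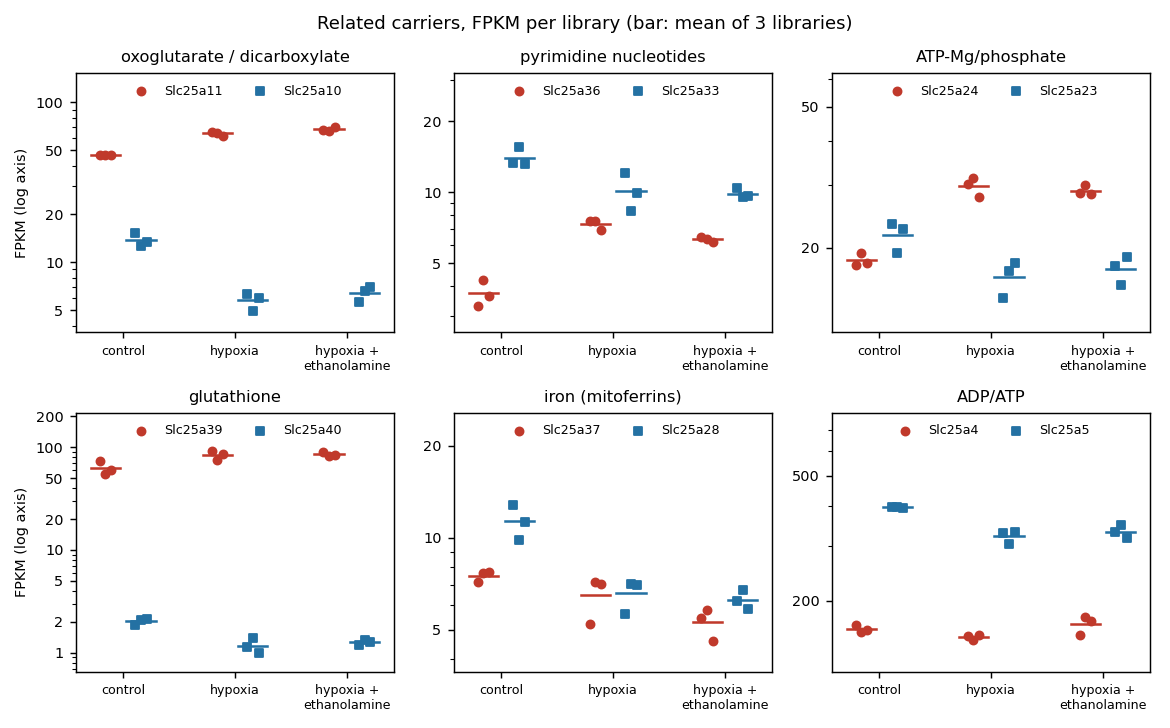
FPKM (vertical log axis) of related carriers in each of the 9 libraries (points), with the mean of the 3 libraries of a group as a line. Slc25a11, Slc25a36 and Slc25a24 are higher and their partners Slc25a10, Slc25a33 and Slc25a23 lower in both hypoxic groups than in control.

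Among the amino acid carriers 5 of 6 tested were lower in hypoxia and none higher, with a median log2 change of -0.66. Of all genes tested, 34.7% were lower and 24.7% higher. Slc25a22, which carries glutamate with protons into the matrix (chr7:141429744-141437892, minus strand), was at 8.94, 7.43 and 7.38 FPKM in the control libraries, 2.65, 3.52 and 3.18 in hypoxia and 3.44, 3.22 and 2.77 with ethanolamine. All hypoxic libraries were below the lowest control value, and the log2 change of -1.22 ± 0.12 (SE), with a limma adjusted p of 2.46e-05, was the lowest of the 32 members. The aspartate/glutamate carriers feed the malate-aspartate shuttle from the aspartate side. Slc25a12 (aralar, chr2:71271063-71367749, minus strand) was at 20.7, 20.2 and 20.5 FPKM in the control libraries, 10.5, 12.2 and 11.5 in hypoxia and 12.4, 13.2 and 12.7 with ethanolamine. Its log2 change was -0.82 ± 0.06 (SE) with a limma adjusted p of 5.96e-06, and the groups were far apart relative to their spread. Slc25a13 (citrin) was at 17.1, 20.4 and 18.4 FPKM in the control libraries, 15.1, 10.5 and 15.4 in hypoxia and 11.1, 10.6 and 11.4 with ethanolamine. Hypoxia replicate 2 stood below the other hypoxia libraries and at the level of the ethanolamine libraries. The log2 change of -0.45 ± 0.14 (SE) had a limma adjusted p of 0.0179, and without control replicate 2 the adjusted p was 0.0616 with a log2 change of -0.38. Without hypoxia replicate 2 the call held at a smaller log2 change of -0.28 (limma adjusted p 0.0218). The ratio of Slc25a13 to Slc25a12 was 0.910 ± 0.0908 in control and 1.21 ± 0.306 in hypoxia (SD, n = 3), with overlapping ranges.

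Slc25a44, which carries branched-chain amino acids in mouse brown fat, was the most abundant amino acid carrier, at 23.9, 24.0 and 24.0 FPKM in the control libraries, 11.3, 16.1 and 14.7 in hypoxia and 13.2, 15.4 and 14.9 with ethanolamine. The controls were nearly identical while hypoxia values were spread, and no hypoxic library reached the controls. Its log2 change was -0.77 ± 0.12 (SE) with a limma adjusted p of 0.000391. The ornithine/citrulline carrier Slc25a15 had means of 2.17 ± 0.148 FPKM in the control group, 1.33 ± 0.107 under hypoxia and 1.60 ± 0.139 when ethanolamine was added (SD, n = 3), a log2 change of -0.54 ± 0.10 (SE) and a limma adjusted p of 0.00144. The glycine carrier Slc25a38, needed for haem synthesis in red cell precursors, had means of 3.96 ± 0.505 FPKM in the control group, 3.41 ± 0.478 under hypoxia and 3.38 ± 0.116 when ethanolamine was added (SD, n = 3), and its log2 change of -0.19 ± 0.11 (SE) did not pass (limma adjusted p 0.18). Slc25a20, which exchanges acylcarnitines for free carnitine in fatty acid oxidation, was higher against this trend. It was at 2.64, 2.19 and 2.42 FPKM in the control libraries, 3.19, 3.17 and 3.39 in hypoxia and 3.14, 3.55 and 2.95 with ethanolamine. Each hypoxic library exceeded each control, with a log2 change of 0.37 ± 0.09 (SE) and a limma adjusted p of 0.00806.

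Of 7 tested carriers of cofactors and pyrimidine nucleotides, 2 were higher and 3 lower in hypoxia, where 24.7% of all genes were higher and 34.7% lower. The pyrimidine nucleotide carriers Slc25a36 (chr9:97074961-97111157, minus strand) and Slc25a33 (chr4:149744036-149774277, minus strand), whose substrates are known from the human proteins, changed in opposite directions. Their promoter windows are shown for that reason, at chr9:97110992-97111291 and chr4:149774218-149774517, both minus strand in GRCm38.p6, with the same motif in capitals.
Slc25a36 promoter: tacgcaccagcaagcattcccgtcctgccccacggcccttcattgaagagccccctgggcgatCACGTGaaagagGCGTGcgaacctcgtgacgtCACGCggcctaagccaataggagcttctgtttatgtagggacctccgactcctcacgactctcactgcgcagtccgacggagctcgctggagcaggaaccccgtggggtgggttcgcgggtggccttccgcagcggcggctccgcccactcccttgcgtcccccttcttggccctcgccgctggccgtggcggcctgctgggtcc
Slc25a33 promoter: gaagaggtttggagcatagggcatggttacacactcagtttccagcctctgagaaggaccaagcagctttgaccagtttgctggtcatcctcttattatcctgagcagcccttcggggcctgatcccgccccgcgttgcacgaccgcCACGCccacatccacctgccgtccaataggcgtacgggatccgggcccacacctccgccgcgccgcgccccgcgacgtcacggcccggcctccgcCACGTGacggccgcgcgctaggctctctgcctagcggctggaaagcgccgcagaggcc
The Slc25a36 window holds 3 separate runs of matches and the Slc25a33 window 2.

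Slc25a36 was at 3.30, 4.23 and 3.64 FPKM in the control libraries, 7.52, 7.56 and 6.92 in hypoxia and 6.45, 6.36 and 6.15 with ethanolamine. Both hypoxic groups lay above control, and the log2 change of 0.90 ± 0.09 (SE) with a limma adjusted p of 2.33e-05 was the highest of the 32 members. Slc25a33 was at 13.3, 15.5 and 13.1 FPKM in the control libraries, 12.1, 8.30 and 9.96 in hypoxia and 10.4, 9.56 and 9.64 with ethanolamine. No hypoxic library reached the lowest control, and its log2 change was -0.46 ± 0.12 (SE) with a limma adjusted p of 0.0103. Slc25a33 shares 281 exonic bases with the opposite-strand gene Gm13068. The ratio of Slc25a36 to Slc25a33 was 0.248, 0.272 and 0.277 in control, 0.623, 0.911 and 0.694 in hypoxia and 0.620, 0.665 and 0.638 with ethanolamine. It was higher in both hypoxic groups than in any control library.

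Slc25a32, which carries folate and FAD into mitochondria (chr15:39091231-39112716, minus strand), was at 8.18, 9.35 and 8.97 FPKM in the control libraries, 4.73, 4.84 and 4.91 in hypoxia and 5.00, 4.92 and 5.17 with ethanolamine. Within each hypoxic group the spread was small and no library came near the controls. Its log2 change was -0.81 ± 0.07 (SE) with a limma adjusted p of 8.34e-06. Slc25a16, a candidate coenzyme A carrier, was also lower, with means of 3.91 ± 0.274 FPKM in the control group, 2.55 ± 0.349 under hypoxia and 2.56 ± 0.0388 when ethanolamine was added (SD, n = 3), a log2 change of -0.54 ± 0.10 (SE) and a limma adjusted p of 0.00122. Slc25a17, a peroxisomal carrier of coenzyme A, FAD and NAD+, had the highest mean of this group over the 9 libraries, at 11.6, 12.7 and 12 FPKM in the control libraries, 14.6, 14.4 and 14.7 in hypoxia and 14.8, 15.7 and 14.3 with ethanolamine. It was higher in every hypoxic library, with a log2 change of 0.26 ± 0.06 (SE) and a limma adjusted p of 0.00406. The NAD+ carrier Slc25a51 had means of 5.19 ± 0.355 FPKM in the control group, 4.0 ± 1.06 under hypoxia and 4.69 ± 0.660 when ethanolamine was added (SD, n = 3) and a log2 change of -0.37 ± 0.17 (SE) that did not pass (limma adjusted p 0.0988). Its exons share 125 bases with a microRNA gene model, Gm25692.

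Iron and glutathione carriers each come as a pair of related genes. Mitoferrin 1 (Slc25a37), the main importer in red cell precursors, was at 7.13, 7.64 and 7.74 FPKM in the control libraries, 5.23, 7.17 and 7.05 in hypoxia and 5.45, 5.79 and 4.60 with ethanolamine. Its hypoxia range reached into the control range, and the log2 change of -0.21 ± 0.12 (SE) did not pass (limma adjusted p 0.181). Mitoferrin 2 (Slc25a28), the more widely expressed form, was at 12.8, 9.81 and 11.2 FPKM in the control libraries, 5.63, 7.04 and 7.02 in hypoxia and 6.21, 6.72 and 5.84 with ethanolamine. All hypoxic libraries were below control, with a log2 change of -0.74 ± 0.12 (SE) and a limma adjusted p of 0.000488. The share of Slc25a37 in the mitoferrin sum was 35.7%, 43.8% and 40.8% in control, 48.1%, 50.4% and 50.1% in hypoxia and 46.8%, 46.3% and 44.0% with ethanolamine. No groups overlapped, with an exact permutation p of 0.1 for each pair. Slc25a37 shares 473 exonic bases with opposite-strand gene models.

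The glutathione carrier Slc25a39 was the third most abundant member, at 72.9, 54.4 and 60.6 FPKM in the control libraries, 91.1, 75.1 and 85 in hypoxia and 89.7, 82.5 and 83.3 with ethanolamine. Control replicate 1 stood above the other controls and just below the hypoxia range. The log2 change was 0.42 ± 0.11 (SE) with a limma adjusted p of 0.00882. Its paralogue Slc25a40, the member closest above the 1 FPKM limit, was at 1.85, 2.09 and 2.13 FPKM in the control libraries, 1.15, 1.39 and 0.985 in hypoxia and 1.19, 1.33 and 1.26 with ethanolamine. It was lower in every hypoxic library, with a log2 change of -0.60 ± 0.12 (SE) and a limma adjusted p of 0.00192. On the FPKM scale, Slc25a39 exceeded Slc25a40 by 31.3-fold ± 7.06 in control, 73.4-fold ± 16.9 in hypoxia and 67.9-fold ± 7.0 with ethanolamine (SD, n = 3).

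The uncoupling protein-like members with an Slc25a symbol were not called. The uncoupling protein Ucp2, counted with the other mitochondrial transporters because of its symbol, was lower in hypoxia. It had means of 30.5 ± 0.858 FPKM in control and 24.3 ± 3.41 in hypoxia (SD, n = 3). Its log2 change was -0.33 ± 0.13 (SE) with a limma adjusted p of 0.0472. Slc25a30 was at 5.53, 6.86 and 6.05 FPKM in the control libraries, 6.47, 5.73 and 5.72 in hypoxia and 6.31, 5.71 and 6.24 with ethanolamine. The groups overlapped, and the log2 change was -0.04 ± 0.09 (SE) (limma adjusted p 0.761). Slc25a14 had means of 1.91 ± 0.127 FPKM in the control group, 2.27 ± 0.553 under hypoxia and 2.65 ± 0.461 when ethanolamine was added (SD, n = 3) and a log2 change of 0.18 ± 0.16 (SE) (limma adjusted p 0.358). By contrast, the outer membrane member and both tested members that were not assigned a substrate here were higher in hypoxia. Slc25a46, an outer membrane protein that takes part in mitochondrial dynamics, was at 9.15, 10.4 and 8.94 FPKM in the control libraries, 14.0, 13.9 and 13.9 in hypoxia and 13.1, 13.7 and 13.9 with ethanolamine. The hypoxia libraries were almost equal and all lay above control, with a log2 change of 0.53 ± 0.07 (SE) and a limma adjusted p of 0.000108. Slc25a46 shares 383 exonic bases with the opposite-strand gene B930094E09Rik.

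Ethanolamine under hypoxia was compared with hypoxia alone, the 2 groups with equal labelled time and oxygen. No member passed an adjusted p of at most 0.05 in limma, where 0.568% of all genes did, and 5 of the 32 had an unadjusted p under 0.05, where 14.7% of all genes did. The 95% interval of the log2 change lay between -0.60 and 0.63 for every member, and within 0.5 of 0 for 24 of them. Libraries of the 2 groups did not overlap for 9 members, against 21.6% of all genes. Among these, Slc25a11, Slc25a12, Slc25a15 and Slc25a32 had the higher values with ethanolamine (unadjusted limma p 0.108, 0.038, 0.0872 and 0.446). Slc25a25, Slc25a36, Slc25a43 and Slc25a45 had the lower (unadjusted limma p 0.265, 0.0495, 0.00155 and 0.021). None of them was shown to differ between the hypoxic groups.

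Both tested members that were not assigned a substrate here were among those with the smallest p-values. Slc25a43, whose substrate is unassigned, was at 7.01, 7.22 and 6.44 FPKM in the control libraries, 9.65, 8.83 and 9.11 in hypoxia and 7.16, 6.62 and 7.70 with ethanolamine. The hypoxia libraries stood above both other groups, which overlapped. Its log2 change was 0.39 ± 0.08 (SE) in hypoxia against control (limma adjusted p 0.00168) and -0.34 ± 0.08 (SE) with ethanolamine against hypoxia (unadjusted p 0.00155, limma adjusted p 0.0985). Slc25a45, likewise not assigned a substrate here, was at 4.06, 4.06 and 3.05 FPKM in the control libraries, 4.52, 4.55 and 5.29 in hypoxia and 3.36, 3.93 and 3.83 with ethanolamine. Its hypoxia values were again above the rest, with log2 changes of 0.33 ± 0.12 (SE) in hypoxia (limma adjusted p 0.0364) and -0.33 ± 0.12 (SE) with ethanolamine (unadjusted p 0.021, limma adjusted p 0.249). For both carriers the 2 comparisons share the 3 hypoxia libraries, so the opposite signs are not independent results. The hypoxia call of Slc25a45 was lost without control replicate 3, where the log2 change was 0.21 (limma adjusted p 0.120). It was also lost without hypoxia replicate 1, 2 or 3, at log2 changes of 0.37, 0.36 and 0.26 (limma adjusted p 0.0524, 0.0532 and 0.120). With only the groups compared and without the filter on low values the log2 change stayed at 0.33 (limma adjusted p 0.0582 and 0.0776).

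**Figure D4:**
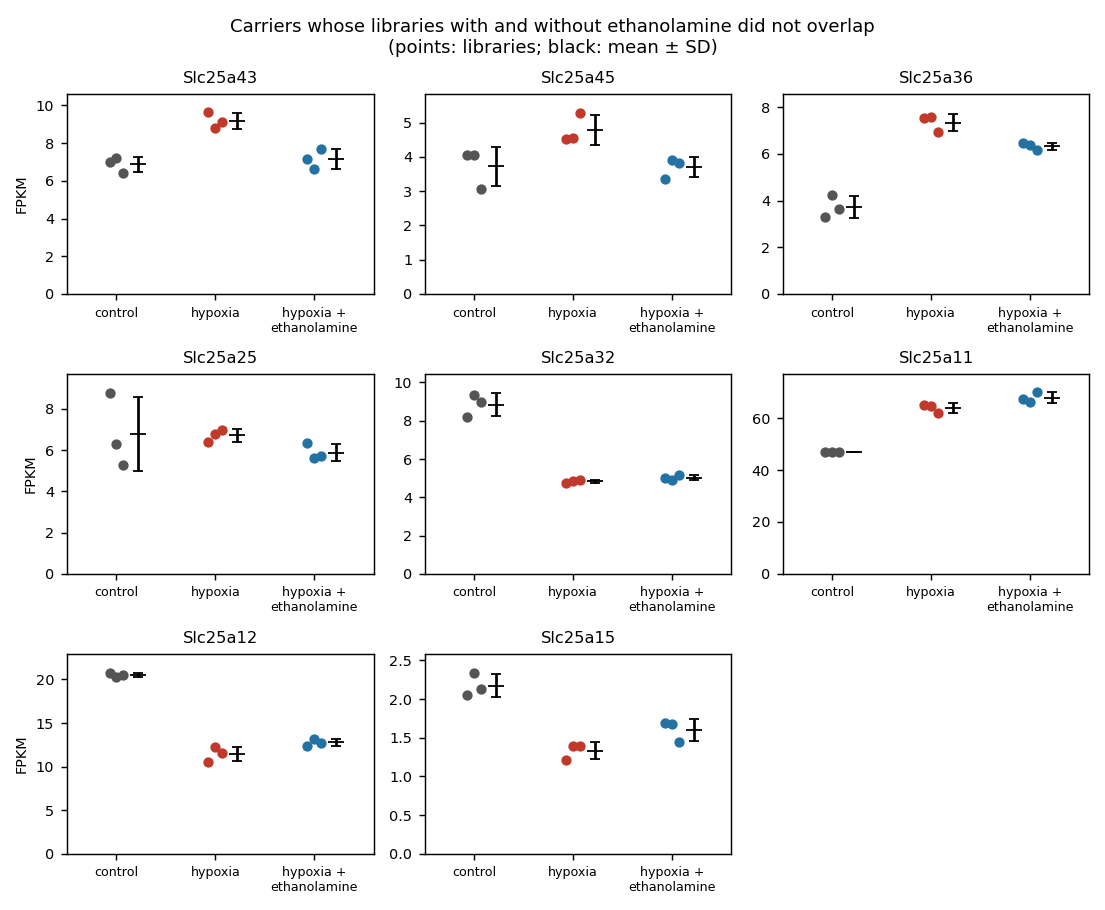
FPKM (vertical axis, from 0) of carriers whose hypoxia libraries with and without ethanolamine did not overlap, by library (points) with the group mean and SD in black. Slc25a43 and Slc25a45 are highest in hypoxia alone, whereas for Slc25a32, Slc25a11 and Slc25a12 the step from control is the larger one. No carrier passed an adjusted p of at most 0.05 between the hypoxic groups.

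Against control, the ethanolamine group had 21 of 32 members called, 7 higher and 14 lower, or 65.6%, where the background was 58.5% in all, 24.1% for higher and 34.4% for lower genes. This comparison and that of hypoxia against control share the 3 control libraries, so their values are set side by side only. Slc25a10 had a log2 change of -1.19 in hypoxia and -1.05 in hypoxia with ethanolamine, Slc25a22 -1.22 and -1.21, Slc25a12 -0.82 and -0.66, Slc25a32 -0.81 and -0.75, and Slc25a36 0.90 and 0.70. Slc25a3, Slc25a43 and Slc25a45 were called in hypoxia but not with ethanolamine (limma adjusted p 0.365, 0.592 and 0.997), and Slc25a37 was called with ethanolamine (log2 change -0.47, limma adjusted p 0.00953) but not in hypoxia. In the direct comparison of the 2 hypoxic groups these 4 had limma adjusted p-values of 0.389, 0.0985, 0.249 and 0.373, so none was shown to differ between them.

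The other 16 rows had means under 1 FPKM and were not tested. Slc25a26, the S-adenosylmethionine carrier just under the limit, had a mean of 0.990 FPKM over the 9 libraries, against 1.48 FPKM for Slc25a40 just above it. Slc25a42, a coenzyme A carrier, was at 0.779 ± 0.0529 FPKM in the control group, 0.320 ± 0.0597 under hypoxia and 0.359 ± 0.0876 when ethanolamine was added (SD, n = 3). With the filter on low values removed, its log2 change in hypoxia was -0.64 with a limma adjusted p of 0.0033. The highest value in any library was 0.653 FPKM for the basic amino acid carrier Slc25a29, 0.611 for Slc25a53, 0.496 for Slc25a47, 0.382 for Slc25a34 and 0.283 for Slc25a35. It was 0.145 for the second glutamate carrier Slc25a18, 0.137 for the second ornithine carrier Slc25a2, and under 0.1 for Slc25a5-ps, Slc25a27, Slc25a48 and Slc25a54. Slc25a21, Slc25a31 and Slc25a41 were listed at 0 in all 9 libraries. Each of the 32 tested members had a mean above 1 FPKM in every group, the lowest being 1.17 for Slc25a40 in hypoxia.

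Genes that work with the carriers were counted in 7 lists, chosen like the members with earlier results of these data known; their counts stand beside 34.7% of all tested genes lower, 24.7% higher and 59.4% called in hypoxia. The TIM22 import route that inserts carriers had 10 of 13 genes lower and 1 higher in hypoxia, or 84.6% called. The lowest log2 changes were those of Timm10 (-1.20 ± 0.16), a chaperone of the intermembrane space, and Tomm40 (-0.92 ± 0.09), the outer membrane pore, while Timm10b was higher (0.41 ± 0.11; limma adjusted p 0.000172, 2.36e-05 and 0.013). Other mitochondrial membrane transporters had 13 of 21 lower and 3 higher. Letm1, a cation exchanger, had the lowest log2 change (-1.01 ± 0.09, limma adjusted p 9.92e-06). The outer membrane channel Vdac1, with 123 ± 9.09 FPKM in control and 259.8 ± 18.6 in hypoxia (SD, n = 3), and Tspo, with 40.9 ± 3.08 FPKM in control and 73.4 ± 7.19 in hypoxia (SD, n = 3), were highest, with log2 changes of 1.07 ± 0.09 and 0.83 ± 0.10 (limma adjusted p 6.77e-06 and 7.86e-05).

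Of 4 malate-aspartate shuttle enzymes only the mitochondrial aspartate aminotransferase Got2 was called, with 150.2 ± 4.29 FPKM in control and 111 ± 1.72 in hypoxia (SD, n = 3), a log2 change of -0.43 ± 0.05 and a limma adjusted p of 5.92e-05. Of 8 mitochondrial folate enzymes 4 were lower and 2 higher. Shmt2, which splits serine into glycine and a folate-bound carbon, had 137 ± 7.10 FPKM in control and 37.9 ± 1.56 in hypoxia (SD, n = 3) and a log2 change of -1.83 ± 0.06, and Gcsh of the glycine cleavage system had one of -1.26 ± 0.09, while Aldh1l2 (1.29 ± 0.12) and Mthfd1l (0.95 ± 0.05) were higher (limma adjusted p at most 1.59e-05). Of 21 haem and iron-sulphur cluster genes 8 were lower and 3 higher, so that the 52.4% called was near the share of all genes, with Alad of haem synthesis (-1.46 ± 0.09) lowest and Fdx1 (0.79 ± 0.15) and Alas1 (0.67 ± 0.09) highest (limma adjusted p at most 0.00131). Of 10 genes in a glutathione and thioredoxin list 7 were lower and none higher. Prdx3 and Txnrd2, of the peroxiredoxin and thioredoxin systems, were among the 7 lower, so the count is not one of glutathione genes alone. The lowest log2 changes were those of the cystine importer Slc7a11 (-1.13 ± 0.10, limma adjusted p 1.32e-05) and Gclm (-1.12 ± 0.18, limma adjusted p 0.000473), a subunit of the rate-limiting ligase. Of 13 carnitine shuttle and fatty acid oxidation genes 3 were lower and 1 higher. Cpt1a, which makes the acylcarnitines that Slc25a20 carries, had 5.65 ± 0.632 FPKM in control and 2.15 ± 0.219 in hypoxia (SD, n = 3) and a log2 change of -1.21 ± 0.10 (limma adjusted p 7.9e-06), Eci1 one of -0.62 ± 0.12 (limma adjusted p 0.00187) and Acadm one of 0.18 ± 0.05 (limma adjusted p 0.0153).

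**Figure D5:**
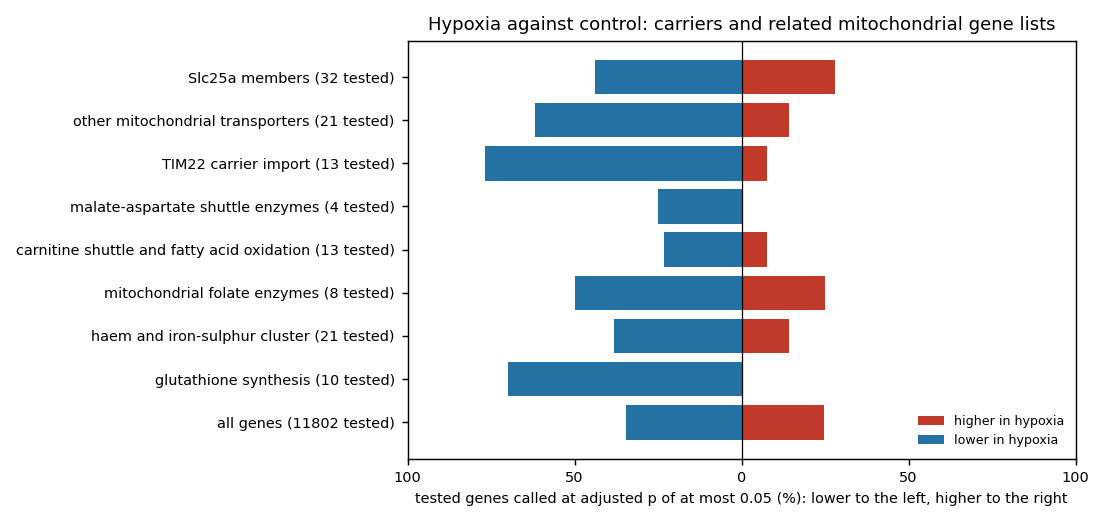
Percent of tested genes with an adjusted p of at most 0.05 in hypoxia against control, higher to the right and lower to the left, for the carriers, the 7 related gene lists and all genes tested (number tested in brackets). The carriers stand at 23 of 32 called, the TIM22 import list at 11 of 13 and the fatty acid oxidation list at 4 of 13, beside 59.4% of all genes.

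Ethanolamine under hypoxia brought no call in any of the 7 lists in limma. In the carnitine shuttle and fatty acid oxidation list, 6 of 13 genes had an unadjusted p under 0.05, all with higher values with ethanolamine, where 6.85% of all genes did so in that direction. In the other 6 lists 1 to 3 genes had an unadjusted p under 0.05, where 14.7% of all genes did. They were 2 of 4 malate-aspartate shuttle enzymes, both higher, and 3 of 10 genes in the glutathione and thioredoxin list. The remaining lists had 2 of 13 (TIM22 import), 3 of 21 (haem and iron-sulphur cluster), 2 of 21 (other transporters) and 1 of 8 (folate enzymes).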

How the data were processed

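RNA was isolated with a column kit and libraries were prepared from total RNA with a SMARTER mRNA kit, per the labels' protocols. The authors deposited 1 table of FPKM values per gene for 9 libraries; GRCm38 (mm10) is the build per the submitters' processing notes, and the sources used here do not name the aligner, the quantification tool or the strand. Whole reads could not be recovered from the FPKM, so no count test was used.

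Values were tested as log2(FPKM + 0.5) with limma 3.58.1 (R 4.3.3), with a mean-variance trend, over the 11802 genes averaging 1 FPKM or more, in a model of 3 group means over all 9 libraries, with Benjamini-Hochberg adjustment at 0.05. Fold changes on this scale understate those of low genes. Sums, shares and ratios were compared by two-sided exact permutation tests. The script was tested on simulated data. Positions are from GENCODE M21 (GRCm38), promoter windows from RefSeq (GRCm38.p6), which held at least 1 for 26 of the 32 tested members. Values in all libraries are given for members with a limma adjusted p of at most 0.05 and an absolute log2 change of at least 0.8, the 3 with the smallest p under ethanolamine, the most abundant of each substrate group and related pairs; Slc25a1 was added after its values were seen. In each related list the 2 highest and 2 lowest called changes are named. Some genes that these rules select are not reported here. Members and lists were chosen with earlier results of these data known. The 19 alternatives covered pseudocount, filter, scaling, block, samples, variance trend and each library left out.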

Additional observations from a re-analysis of the deposited data

How the results depend on the processing

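Over the 19 alternatives the number of carriers called was 17 to 25 in hypoxia against control (21 to 25 with 1 library left out), 0 in each for ethanolamine against hypoxia, and 16 to 22 for ethanolamine against control (20 to 22). Of the 23 hypoxia calls 20 held wherever the gene was tested, and Slc25a3, Slc25a13 and Slc25a45 were lost in some. No called carrier turned sign in hypoxia. Of uncalled carriers, Slc25a25 in hypoxia was -0.0012 when ribosomal RNA-like and mitochondrial transcripts were left out and the rest rescaled (chosen after seeing the data) and -0.14 to 0.21 with 1 library left out. Slc25a30 in hypoxia was 0.031 under median-of-ratios and 0.093 under quantile scaling and -0.10 to 0.041 with 1 library left out. Ethanolamine against control gave -0.010 for Slc25a43 after rescaling, and for Slc25a45 -0.00013 with a pseudocount of 1, -0.057 after rescaling and -0.12 to 0.061 with 1 library left out.

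The summed carrier FPKM moved to 958.5 in control and 971.9 with ethanolamine under median-of-ratios scaling. After rescaling it moved to 931.8 with ethanolamine, beside 931.4 in hypoxia. A filter at 5 FPKM tested fewer genes and gave 4671 calls over all genes in hypoxia, beside 7011, and 4603 with ethanolamine against control, beside 6905. Ethanolamine against hypoxia had 67 calls over all genes, 40 without a filter, 6 with only the groups compared, 0 with a replicate block and 0 to 38 with 1 library left out; the cause was not tested. The replicate block left 23 carriers called in hypoxia, with Slc25a45 lost (limma adjusted p 0.0651), and 0 under ethanolamine. Same-numbered libraries deviated together with correlations of -0.12 to 0.11, so the numbers were not taken to pair them. Absolute depth is unknown, so the counting error of low members such as Slc25a40 cannot be estimated.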
